A study of Rattus norvegicus with 10 samples.

Results

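Cultured myoblasts from the soleus muscle of rats kept in hindlimb suspension (HS) for 3 days were compared with those from rats kept in HS for 1 day. The comparison used the 2 libraries labelled HS3 and the 2 labelled HS1, 4 of the 10 libraries of the study, whose other groups were Control, HS7 and HS14. Of the 10 pairs of groups, HS1 and HS3 had the largest number of differentially expressed genes (DEGs), 932, against 831 for HS3 and HS14 as the next pair, and the pair was chosen for this reason. It was the third of the 10 pairs by the median size of the log2 fold change. The rats were 3-month-old male Wistar rats, and those of both groups were suspended so that the hindlimbs bore no weight, for 1 or 3 days. Both hindlimb soleus muscles were digested, the cells were grown for 3 days and then pre-plated, a step in which fibro-adipogenic progenitors (FAPs) stick to an uncoated dish and are left behind, and RNA was taken 1 day later. HS1 and HS3 cultures therefore shared the isolation protocol, the medium and the time in culture, and differed by label only in the days the animals were suspended. No source used here states if both groups were isolated and pre-plated in the same runs, and differences between runs were not tested. What was measured was the cell population that could be grown from the muscle, not the muscle itself.

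Satellite cells are the stem cells of skeletal muscle. Once activated they divide as myoblasts, and on differentiation they switch on *Myog* and the fusion proteins myomaker and myomixer, leave the cell cycle and build sarcomeres. FAPs are the interstitial fibroblasts of muscle, marked by *Pdgfra*, and make much of its collagen, microfibrils and secreted growth factors. The soleus is a slow postural muscle that loses mass quickly when it is unloaded.

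The total counts were 23931121 and 22304805 in the HS1 libraries and 20200972 and 26007203 in the HS3 libraries, within the range of the 10 libraries (20200972 to 28175200). Levels are given as CPM, that is, a gene's counts relative to all counts of its library on a scale common to both groups, after TMM normalization of these 4 libraries. A count of 3, taken as the detection floor, equalled 0.115 to 0.149 CPM here. Replicate libraries varied by a biological coefficient of 6.35% in HS1 and 9.04% in HS3. Among counts of 1 to 20, 70.7 to 71.3% were even numbers in these libraries, and how read pairs were counted is not given in the sources used here. The 10 most abundant genes took 7.05 and 7.25% of the counts in HS1 and 9.28 and 9.53% in HS3. No source used here states if a group's libraries stand for separate animals or cultures, so the p-values measure only the spread between these libraries, which may be technical.

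The difference between HS3 and HS1 was lopsided, with far more genes higher after 3 days than lower. A gene was called a DEG when its log2 fold change exceeded 1.5 in size and its p, computed by the quasi-likelihood test of edgeR and adjusted by Benjamini-Hochberg over all genes, was under 0.01. Of 13008 genes tested, 740 (5.69%) were upregulated DEGs in HS3 and 192 (1.48%) were downregulated DEGs, so that 79.4% of DEGs were higher in HS3. The lopsidedness came with the fold threshold: by adjusted p under 0.01 alone, 2239 genes were higher and 1726 lower, and the median log2 fold change of all genes was -0.0072. Of the upregulated DEGs, 169 had a log2 fold change beyond 3, against 29 of the downregulated DEGs. Most genes did not overlap between the groups: of the 13008 tested, both HS3 libraries lay above both HS1 libraries for 4508 and below them for 4578. All DEGs were among these genes, so a lack of overlap does not set a gene apart. The upregulated DEGs had a median level of 2.06 log2 CPM and the downregulated DEGs 0.99, and 278 and 44 of them, respectively, reached 3 log2 CPM. In bulk RNA, fewer cells of a type and less RNA per cell cannot be told apart, and this holds for every gene below.

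**Figure D1:**
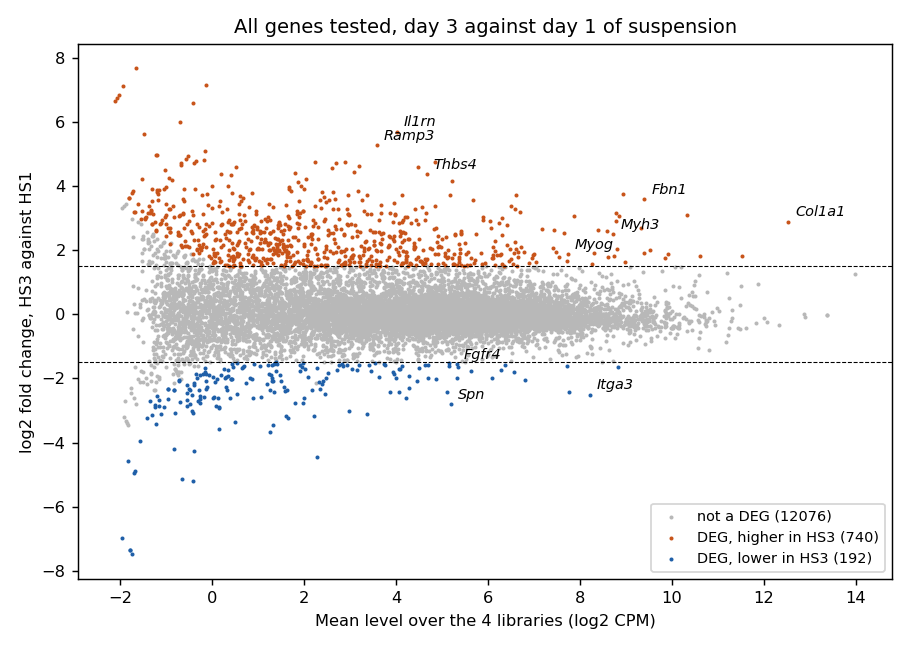
Each point is 1 of the 13008 genes tested, with its mean level over the 4 libraries (log2 CPM, horizontal) and its log2 fold change in HS3 against HS1 (vertical). The 740 upregulated DEGs (orange) lie across the whole range of levels up to *Col1a1* at the right, while most of the 192 downregulated DEGs (blue) lie at low levels. Dashed lines mark a log2 fold change of 1.5 in either direction.

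Gene names were known for 742 of the genes tested, namely those that the study had called against Control at some time of suspension. Among these, 399 (53.8%) were upregulated DEGs and 58 (7.82%) downregulated DEGs. For 364 of them the study's call was in HS1 or HS3. They were therefore chosen on these same libraries, and their direction is not independent evidence. Of these 364, 297 (81.6%) were upregulated and 43 (11.8%) downregulated DEGs. The other 378 were listed for HS7 or HS14 only and so had no such call in HS1 or HS3; 102 of them (27%) were upregulated DEGs, 15 (3.97%) were downregulated DEGs, and their median log2 fold change was 0.86. All gene groups below contain named genes only, and these shares are the background for their counts. A list with a share near 53.8%, or near 27% among its members listed for HS7 or HS14 only, does not stand out from the other named genes. The 53.8% mixes both kinds of genes. A list made mostly of genes listed for HS1 or HS3 can therefore exceed it, up to about 81.6%, without standing out.

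Among named genes with a mean of at least 3 log2 CPM, *Il1rn* was upregulated most, followed by *Ramp3*. *Il1rn*, the antagonist of the interleukin-1 receptor, had 2.12 and 2.30 CPM in HS1 and 102 and 128 CPM in HS3 (log2 fold change 5.70 ± 0.148 (SE), adjusted p = 1.02e-22). *Ramp3*, which joins a calcitonin-family receptor to form an adrenomedullin receptor, had 1.67 and 2.13 CPM in HS1 and 65.6 and 81.2 CPM in HS3 (5.28 ± 0.162 (SE), adjusted p = 2.63e-21). Both genes were low in each HS1 library and far higher in each HS3 library. The lymphangiogenic growth factor *Vegfd* had 6.19 and 4.77 CPM in HS1 and 154 and 145 CPM in HS3 (4.76 ± 0.122 (SE), adjusted p = 1.93e-23). *Nkd2*, an intracellular antagonist of Wnt signalling, had 1.47 and 2.21 CPM in HS1 and 39.1 and 51.3 CPM in HS3 (4.63 ± 0.187 (SE), adjusted p = 5.14e-17). For each of them the lower HS3 library exceeded the higher HS1 library many times over.

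*S100b*, a calcium-binding protein of glia and some other cells, had 2.65 and 2.0 CPM in HS1 and 34.5 and 33.4 CPM in HS3 (log2 fold change 3.86 ± 0.169 (SE), adjusted p = 4.29e-18). *Adamtsl3* and *Svep1*, secreted matrix proteins, had log2 fold changes of 4.60 and 3.74. *Mfap5*, which binds fibrillin microfibrils, had 8.23 and 9.46 CPM in HS1 and 142 and 172 CPM in HS3 (4.15 ± 0.119 (SE), adjusted p = 9.91e-22). *Thbs2*, a thrombospondin that regulates collagen assembly, had 132 and 136 CPM in HS1 and 1792 and 1840.2 CPM in HS3 (3.76 ± 0.0895 (SE), adjusted p = 6.06e-24), and *Tgfbi*, a matrix protein named for its induction by TGF-beta, had 25.3 and 28.6 CPM in HS1 and 343 and 374 CPM in HS3 (3.73 ± 0.0983 (SE), adjusted p = 2.98e-23). The libraries of a group lay close together for *Thbs2* and *Tgfbi*, and the groups were far apart.

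Only 9 downregulated DEGs with a name reached a mean level of 3 log2 CPM, against 154 upregulated DEGs with a name. Over all genes, named or not, 44 and 278 did, so the contrast was wider among named genes. The most abundant of the 9 was *Itga3*, the integrin subunit that pairs with beta-1 to bind laminin, with 746 and 667 CPM in HS1 and 122 and 127 CPM in HS3 (log2 fold change -2.50 ± 0.0879 (SE), adjusted p = 1.70e-20). *Spn*, the sialomucin CD43 known from leukocytes, had 97.6 and 96.7 CPM in HS1 and 12.6 and 15.1 CPM in HS3 (-2.81 ± 0.111 (SE), adjusted p = 3.46e-19). *Fgfr4*, the fibroblast growth factor receptor of myoblasts and regenerating fibers, had 68.8 and 68.3 CPM in HS1 and 21.2 and 25.1 CPM in HS3 (-1.56 ± 0.109 (SE), adjusted p = 3.07e-13). All of these were chosen with both HS3 libraries below both HS1 libraries. Without HS3 replicate 1, *Fgfr4* had a log2 fold change of -1.44, short of the fold threshold. The transcription factor *Sim2* had 44.9 and 40.8 CPM in HS1 and 8.67 and 8.61 CPM in HS3 (-2.31 ± 0.131 (SE), adjusted p = 2.19e-15), and *Cst6*, an inhibitor of cysteine proteases, had 46.0 and 44.6 CPM in HS1 and 8.42 and 6.62 CPM in HS3 (-2.6 ± 0.137 (SE), adjusted p = 3.97e-16). The remaining genes were *Epb41l4a* (-2.43), *Ccdc88b* (-2.42), *Anxa3*, a phospholipid-binding annexin (-2.0), and *Msln*, the cell-surface protein mesothelin (-1.59). *Msln* was the single gene of the 9 that was listed for HS7 or HS14 only.

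**Figure D2:**
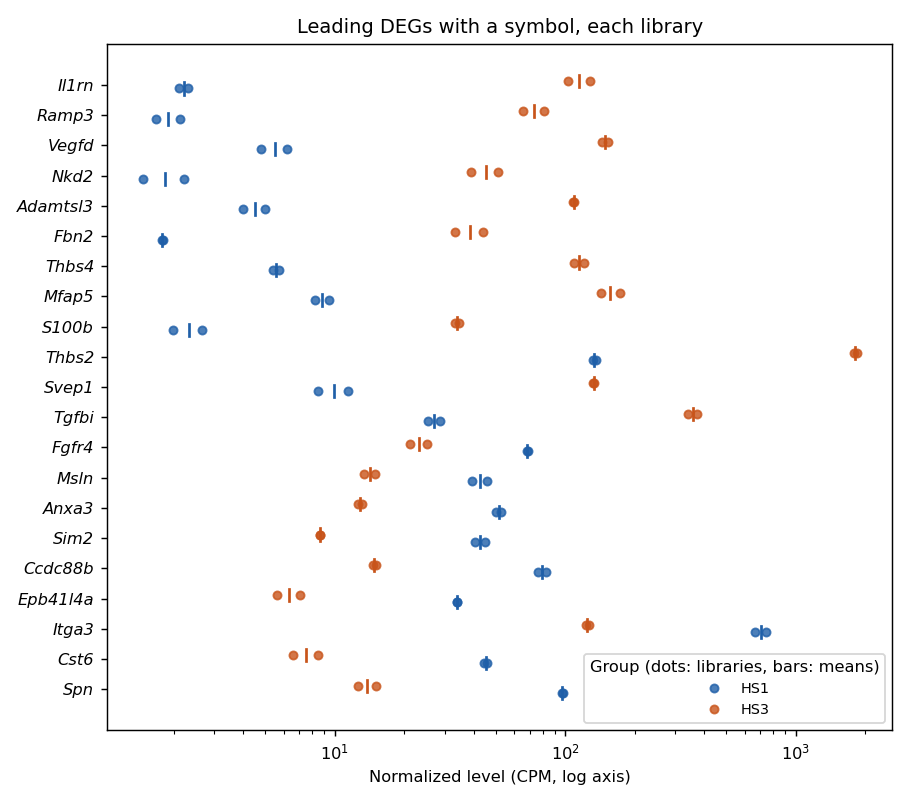
Level of the 12 upregulated and 9 downregulated leading DEGs in each HS1 library (blue dots) and each HS3 library (orange dots), in CPM on a log axis, with short bars at the group means. The genes were chosen to have no overlap between the groups. *Il1rn* and *Ramp3* at the top move farthest, and *Spn*, *Cst6* and *Itga3* at the bottom fell by 2.81, 2.6 and 2.50 on the log2 scale.

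Structural matrix genes were higher in HS3 almost throughout. Of 46 collagens and other structural matrix proteins tested, 39 were upregulated DEGs and 0 downregulated, with a median log2 fold change of 2.88, but 37 of the 46 were listed for HS1 or HS3. Of the 9 listed only for HS7 or HS14, 3 were upregulated DEGs, and their median was 1.08. *Fbn1*, the fibrillin of elastic and non-elastic microfibrils, had 200.1 and 187 CPM in HS1 and 2357 and 2351 CPM in HS3 (log2 fold change 3.60 ± 0.0895 (SE), adjusted p = 1.10e-23). *Fbn2*, the fibrillin best known from development and regeneration, had 1.79 and 1.78 CPM in HS1 and 33.2 and 44.0 CPM in HS3 (4.43 ± 0.181 (SE), adjusted p = 2.46e-18). *Thbs4*, a thrombospondin of tendon and muscle attachment, had 5.38 and 5.73 CPM in HS1 and 109 and 120.3 CPM in HS3 (4.37 ± 0.120 (SE), adjusted p = 7.12e-23). In all of these genes the HS1 libraries were low and close together and the HS3 libraries high.

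The fibril-forming *Col1a1* had 2166 and 2165 CPM in HS1 and 14157 and 18114 CPM in HS3 (log2 fold change 2.90 ± 0.103 (SE), adjusted p = 5.03e-18), with the HS3 libraries further apart than the HS1 libraries. The 3 chains of collagen VI, which surrounds muscle fibers, rose together: *Col6a1* from a mean of 148 to 1313 CPM, log2 fold change 3.15, *Col6a2* from 159 to 1338 CPM, log2 fold change 3.08 and *Col6a3* from 253 to 1634 CPM, log2 fold change 2.69. The small leucine-rich proteoglycan *Bgn* had 426 and 458 CPM in HS1 and 3591 and 3942 CPM in HS3 (3.09 ± 0.0902 (SE), adjusted p = 2.03e-22). Another member of that family, *Dcn*, changed less, from 37.5 to 77.6 CPM, log2 fold change 1.05, and passed the adjusted p but not the fold threshold. *Ltbp2*, a fibrillin-binding protein, had 867 and 824 CPM in HS1 and 1445 and 1622 CPM in HS3 (0.86 ± 0.0836 (SE), adjusted p = 5.97e-10) and was not a DEG either. *Col4a5*, a chain of basement membrane collagen, was the single member that fell by adjusted p, from 55.6 to 33.3 CPM, log2 fold change -0.74.

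Of 25 enzymes that build or cut the matrix and their inhibitors, 19 were upregulated and 0 downregulated DEGs, with a median log2 fold change of 2.72, but 20 of them were listed for HS1 or HS3. Of the other 5, listed for HS7 or HS14 only, 1 was an upregulated DEG, and their median of 0.78 was below the 0.86 of all such named genes. *Has2*, a hyaluronan synthase, had 27.0 and 29.1 CPM in HS1 and 234 and 213 CPM in HS3 (log2 fold change 3.00 ± 0.0964 (SE), adjusted p = 2.63e-21). *Loxl3*, a lysyl oxidase that crosslinks collagen and elastin, had 20.3 and 21.5 CPM in HS1 and 159 and 183 CPM in HS3 (3.03 ± 0.102 (SE), adjusted p = 6.53e-21), and *Cemip2*, a hyaluronidase of the cell surface, had 22.9 and 19.9 CPM in HS1 and 163 and 169.7 CPM in HS3 (2.96 ± 0.100 (SE), adjusted p = 8.37e-21). As in all DEGs, the groups did not overlap in any of them. The other hyaluronan synthase, *Has1*, had 0 and 6 counts in HS1 and 48 and 111 in HS3, a DEG by edgeR but not by DESeq2 (adjusted p = 0.0308). Matrix metalloproteinases went in both directions: *Mmp12*, the macrophage elastase, had 1.34 and 0.607 CPM in HS1 and 5.27 and 6.22 CPM in HS3 (2.54 ± 0.327 (SE), adjusted p = 1.78e-07), while *Mmp9*, a gelatinase, had 11.4 and 10.6 CPM in HS1 and 4.06 and 4.86 CPM in HS3 (-1.29 ± 0.196 (SE), adjusted p = 2.72e-06), past the adjusted p but short of the fold threshold.

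FAP and fibroblast markers were higher in HS3 as well, and 8 of the 15 are also members of the structural matrix list. Of 15 markers tested, 14 were upregulated DEGs and the last, *Dcn*, passed the adjusted p alone. Their log2 fold changes ran from 1.05 to 4.42 with a median of 2.94, and 13 of the 15 were listed for HS1 or HS3. The other members, *Scara5* and *Osr1*, a receptor and a transcription factor of FAPs, were upregulated DEGs with log2 fold changes of 2.54 and 1.56. *Pdgfra*, the receptor that defines FAPs, had 30.3 and 31.4 CPM in HS1 and 304 and 298 CPM in HS3 (log2 fold change 3.29 ± 0.0926 (SE), adjusted p = 1.08e-22). *Thy1*, a surface glycoprotein of fibroblasts, had 159 and 157 CPM in HS1 and 879 and 1023 CPM in HS3 (2.59 ± 0.0899 (SE), adjusted p = 1.30e-20), and *Postn*, a matricellular protein, had 67.1 and 72.7 CPM in HS1 and 408 and 452 CPM in HS3 (2.62 ± 0.0904 (SE), adjusted p = 1.19e-20). Summed over the 15 markers, the level was 2568 and 2579 CPM in the HS1 libraries and 16645 and 20856 CPM in the HS3 libraries, a ratio of 7.29, with *Col1a1* the largest part. In splits chosen after seeing the data, the ratio was 6.41 without *Col1a1* and 6.60 over the 7 markers that are not in the matrix list, all of them upregulated DEGs. All these markers are therefore present in both groups after pre-plating, and at higher levels in both HS3 libraries. The part of this shift in the matrix, growth factor, cytokine and receptor results was not tested.

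The promoter of *Pdgfra* is shown because the gene marks this population. In the RefSeq annotation of GRCr8 it holds 1 AP-1 motif (TGANTCA, either strand, in capitals), 35 bases before the start of the gene. The 250 bases before the start lie at chr14:33408517-33408766, minus strand, and are printed in the direction of transcription.
Pdgfra: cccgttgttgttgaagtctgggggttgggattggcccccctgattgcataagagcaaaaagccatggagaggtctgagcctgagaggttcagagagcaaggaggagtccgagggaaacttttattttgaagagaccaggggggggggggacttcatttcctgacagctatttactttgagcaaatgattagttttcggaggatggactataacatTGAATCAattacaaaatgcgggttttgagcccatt
The motif was found in 6.36% of the 27457 promoters of that annotation, in 7.51% of the 559 named genes with a promoter there, and in 10.7% (6 of 56) of the matrix genes and FAP markers. None of the motifs searched (the E-boxes CAGCTG and CACCTG, AP-1, the MEF2 site, the CArG box and TATAAA) was found in the same window of *Fbn1* or *Il1rn*.

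Genes of muscle differentiation were mostly higher in HS3 as well. Of 17 tested genes of myogenic regulation and fusion, 11 were upregulated DEGs and 0 downregulated, with a median log2 fold change of 1.87. That share is near the 53.8% of all named genes. Of the 10 listed for HS7 or HS14 only, 4 were upregulated DEGs and the median was 1.11, against 27% and 0.86 over all such named genes. *Myog*, the transcription factor that commits myoblasts to differentiate, had 115 and 107 CPM in HS1 and 425 and 389 CPM in HS3 (log2 fold change 1.87 ± 0.0868 (SE), adjusted p = 1.81e-17). *Mymx* (myomixer), which opens the fusion pore, had 3.38 and 4.82 CPM in HS1 and 15.5 and 17.9 CPM in HS3 (2.03 ± 0.191 (SE), adjusted p = 2.91e-10). *Mymk* (myomaker), which merges the outer membrane leaflets, had 51.6 and 45.4 CPM in HS1 and 126 and 131 CPM in HS3 (1.41 ± 0.0937 (SE), adjusted p = 1.05e-13), so it rose by the adjusted p but stayed below the fold threshold. The groups did not overlap for any of these genes, as for most genes tested, and none of them was listed for HS1 or HS3.

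Other regulators of the program moved in both directions. *Stac3*, which couples excitation to contraction, had 1.34 and 1.13 CPM in HS1 and 9.74 and 10.7 CPM in HS3 (3.04 ± 0.252 (SE), adjusted p = 1.69e-11), and *Smyd1*, a methyltransferase and chaperone partner of sarcomere assembly, rose from 3.04 to 17.2 CPM, log2 fold change 2.50. *Cdkn1c*, the cell cycle inhibitor p57 that differentiating myoblasts use, had 1.06 and 2.0 CPM in HS1 and 4.67 and 7.18 CPM in HS3 (1.97 ± 0.309 (SE), adjusted p = 6.30e-06), but with all 10 libraries in one fit its adjusted p was 0.032. *Tead4*, a factor of differentiating myoblasts, had 27.3 and 20.5 CPM in HS1 and 40.2 and 41.5 CPM in HS3 (0.77 ± 0.124 (SE), adjusted p = 8.88e-06). Lower in HS3 by adjusted p were *Msc* (musculin, a repressor of MyoD activity), from 5.14 to 2.72 CPM, log2 fold change -0.91, and *Sox11*, a factor of progenitor cells, from 35.1 to 16.1 CPM, log2 fold change -1.13. *Pax7*, *Myod1* and *Myf5*, which define satellite cells and myoblasts, carried no symbol here and were not analysed here, and *Cdkn1c* was the single member of the list of 20 cell cycle genes that had one. The data used here therefore give no count for proliferation.

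No sarcomere gene was lower in HS3. All 40 tested were higher in HS3, 27 of them as upregulated DEGs and 37 by adjusted p under 0.01, and the median log2 fold change was 1.80. Of the 28 listed for HS7 or HS14 only, 16 were upregulated DEGs and 25 passed the adjusted p, with a median of 1.69, against 27% upregulated DEGs and a median of 0.86 over all 378 named genes of that kind. *Myh3*, the embryonic myosin heavy chain, had 193 and 164 CPM in HS1 and 977 and 1049 CPM in HS3 (log2 fold change 2.50 ± 0.0912 (SE), adjusted p = 1.15e-19). *Actc1*, the cardiac actin that embryonic and regenerating muscle uses, had 229.9 and 192 CPM in HS1 and 706 and 771 CPM in HS3 (1.81 ± 0.0909 (SE), adjusted p = 4.67e-16). *Acta1*, the actin of mature skeletal muscle, had 334 and 293 CPM in HS1 and 630.4 and 654 CPM in HS3 (1.04 ± 0.0843 (SE), adjusted p = 1.16e-11), below the fold threshold, and in the fit of all 10 libraries its adjusted p was 0.0155. *Csrp3*, a Z-disc LIM protein, had 2.16 and 1.65 CPM in HS1 and 14.2 and 16.0 CPM in HS3 (2.98 ± 0.214 (SE), adjusted p = 6.31e-13). *Myh7*, the slow myosin heavy chain that dominates the soleus, went from 3.44 to 5.53 CPM, log2 fold change 0.68, and did not pass the adjusted p.

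The troponins were higher in both the slow and the fast isoforms. The slow subunits *Tnnt1* and *Tnni1* rose by 2.54 and 1.86 on the log2 scale, and the fast subunits *Tnnc2*, *Tnni2* and *Tnnt3* by 2.11, 1.65 and 1.59, all as DEGs. The slow and cardiac *Tnnc1* (0.96) and the cardiac *Tnnt2* (1.48) passed the adjusted p alone. Of 20 genes of excitation-contraction coupling and ion handling, 13 were upregulated DEGs and 0 downregulated, with a median of 1.78. That share is near that of all named genes. Of the 15 listed for HS7 or HS14 only, 8 were upregulated DEGs, against 27% of all such named genes. *Ryr1*, the calcium release channel, had 26.0 and 21.6 CPM in HS1 and 79.9 and 96.6 CPM in HS3 (1.89 ± 0.113 (SE), adjusted p = 3.03e-14). *Casq2*, the calcium-binding protein calsequestrin, had 31.9 and 29.7 CPM in HS1 and 77.0 and 75.4 CPM in HS3 (1.31 ± 0.0998 (SE), adjusted p = 2.76e-12) and was not a DEG. Of 11 genes of muscle energy metabolism, 7 were upregulated DEGs and 0 downregulated (median 2.35), among them *Pygm*, the muscle glycogen phosphorylase, with 4.16 and 5.34 CPM in HS1 and 26.7 and 29.9 CPM in HS3 (2.58 ± 0.159 (SE), adjusted p = 1.66e-14), and *Ckm*, the muscle creatine kinase, from 3.79 to 22.4 CPM, log2 fold change 2.56. *Cox8b*, a respiratory chain subunit of muscle, had 2.61 and 2.82 CPM in HS1 and 3.14 and 3.67 CPM in HS3 (0.33 ± 0.284 (SE), adjusted p = 0.371), and did not pass the test. Its libraries did not overlap, as in most genes tested. The upregulated share of the energy metabolism list was near that of all named genes. Of its 6 members listed for HS7 or HS14 only, 3 were upregulated DEGs.

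*Gja5*, the gap junction protein connexin 40, was high in HS3 and HS7. It had 3.50 and 2.17 CPM in HS1 and 35.6 and 39.3 CPM in HS3 (log2 fold change 3.72 ± 0.172 (SE), adjusted p = 7.97e-17), and, on a scale set over all 10 libraries, 4.03 and 4.55 CPM in Control, 47.2 and 26.1 CPM in HS7 and 1.04 and 0.505 CPM in HS14. The HS3 and HS7 libraries overlapped, and all other libraries lay below them.

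Promoters of 3 muscle genes are shown because these genes all rose by the adjusted p, each as the 250 bases before the gene's start in the RefSeq annotation of GRCr8 with motifs in capitals. *Mymx* (chr9:22894274-22894523, plus strand) holds 1 E-box CAGCTG, 41 bases before the start, and 2 E-boxes CACCTG, 196 and 19 bases before it, the latter on the other strand. *Acta1* (chr19:68784195-68784444, minus strand) holds an E-box CAGCTG at 237, a CArG box at 94 and TATAAA at 29 bases before the start. *Myh3* (chr10:52268935-52269184, plus strand) holds TATAAA at 30 bases before it and no E-box of these kinds.
Mymx: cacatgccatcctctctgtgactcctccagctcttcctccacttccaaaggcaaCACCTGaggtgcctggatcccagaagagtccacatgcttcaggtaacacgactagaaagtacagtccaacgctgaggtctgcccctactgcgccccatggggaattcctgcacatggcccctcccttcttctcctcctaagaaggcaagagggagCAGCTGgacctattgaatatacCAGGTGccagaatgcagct
Acta1: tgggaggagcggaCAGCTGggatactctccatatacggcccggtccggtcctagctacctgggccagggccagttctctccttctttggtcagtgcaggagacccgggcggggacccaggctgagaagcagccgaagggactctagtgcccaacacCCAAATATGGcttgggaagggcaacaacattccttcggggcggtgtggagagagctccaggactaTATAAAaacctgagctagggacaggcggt
Myh3: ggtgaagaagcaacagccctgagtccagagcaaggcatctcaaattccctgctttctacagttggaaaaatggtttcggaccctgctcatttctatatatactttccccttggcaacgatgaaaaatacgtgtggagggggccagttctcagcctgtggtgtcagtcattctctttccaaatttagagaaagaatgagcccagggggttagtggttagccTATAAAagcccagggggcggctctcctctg
E-boxes and CArG boxes are the letters that myogenic factors and serum response factor are known to bind. Both strands were searched, except for TATAAA, which can lie within a MEF2 site. CAGCTG was found in 33.3% (22 of 66) of the promoters of muscle genes, against 19.3% of the named genes with a promoter and 11.9% of all 27457. CACCTG was found in 30.3% of muscle genes, 15.9% of named genes and 15.6% of all. In the matrix genes and FAP markers the shares were 17.9% and 10.7%. Named upregulated DEGs held CAGCTG in 18.9% and CACCTG in 13.6% of 301 promoters. Named downregulated DEGs held them in 24.2% and 27.3% of 33 promoters, so these E-boxes were not more frequent in genes higher in HS3. None of the motifs, each searched as an exact pattern (YTAWWWWTAR for MEF2), was found in the same window of *Myog* or *Actc1*. Variants of these patterns were not searched, so the absence of such sites is not shown. A match of letters is a description and not evidence of a bound site.

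Markers of other cell types that such a culture could hold were uneven. These lists, too, hold only markers that the study had called, so other markers of each cell type are missing from the sums. Of 12 endothelial markers with a symbol, 7 had too few counts to be tested: *Vwf*, the carrier of a clotting factor, had 2 and 4 counts in HS1 and 10 and 8 in HS3, and *Emcn* (endomucin) had 0, 0, 0 and 2. *Cdh5* (VE-cadherin) had 4 and 2 counts in HS1 and 12 and 16 in HS3. The summed endothelial level was 10.2 and 10.8 CPM in HS1 and 16.0 and 15.2 CPM in HS3. *Kdr*, a receptor for vascular growth factors, was the single DEG of that list, with 0.570 and 0.781 CPM in HS1 and 8.01 and 6.82 CPM in HS3 (log2 fold change 3.45 ± 0.309 (SE), adjusted p = 1.06e-10). *Cdh5* did not pass the adjusted p, and its libraries, like those of *Vwf*, had more counts in HS3. Of the 5 members tested, 3 were lower in HS3, none by adjusted p: *Flt4* (-0.47), *Podxl* (-0.46) and *Nos3* (-0.062). *Esam*, which was not tested, had 8 and 4 counts in HS1 and 0 and 4 in HS3.

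Of 7 mural and smooth muscle markers, the pericyte markers *Rgs5* and *Steap4* had too few counts to be tested. *Pdgfrb*, a receptor that mural cells and fibroblasts share, had 57.7 and 56.9 CPM in HS1 and 347 and 383 CPM in HS3 (log2 fold change 2.67 ± 0.0900 (SE), adjusted p = 6.82e-21). The summed level of that list was 87.3 and 87.5 CPM in HS1 and 398 and 436 CPM in HS3, a ratio of 4.77, with *Pdgfrb* the largest part. The other members tested had log2 fold changes of 3.58 (*Ndufa4l2*), 1.47 (*Lmod1*), 0.86 (*Notch3*) and -0.41 (*Myocd*). Tendon markers, 5 of 5 of them upregulated DEGs with a median of 1.96, had a summed level 5.89 times higher, and 4 of them are also in the matrix list. The summed level of 5 Schwann cell markers was 2.71 times higher, but their median log2 fold change was 0.47. *S100b* (3.86) and *Erbb3* (2.62) were upregulated DEGs, *Ptprz1* (-2.15) was a downregulated DEG, and *Gldn* (0.47) and *Ngfr* (0.12) were not DEGs. The summed level of 5 adipocyte markers was 2.08 times higher. *Pparg*, the master factor of fat cells, had 6.52 and 5.42 CPM in HS1 and 14.7 and 17.1 CPM in HS3 (1.41 ± 0.174 (SE), adjusted p = 7.08e-08). The sum of 10 leukocyte markers was lower in HS3, with 128 and 126 CPM in HS1 and 74.3 and 82.0 CPM in HS3, although 4 of the 9 tested were upregulated DEGs. The direction of the sum came from *Spn*. *Cd80* (-0.86, by adjusted p) and *Fcgr2a* (-1.39, not by adjusted p) were also lower in HS3. *Lyz2*, the lysozyme of macrophages, went from 1.39 to 5.90 CPM, log2 fold change 2.10. The part of these markers in the other results was not tested.

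**Figure D3:**
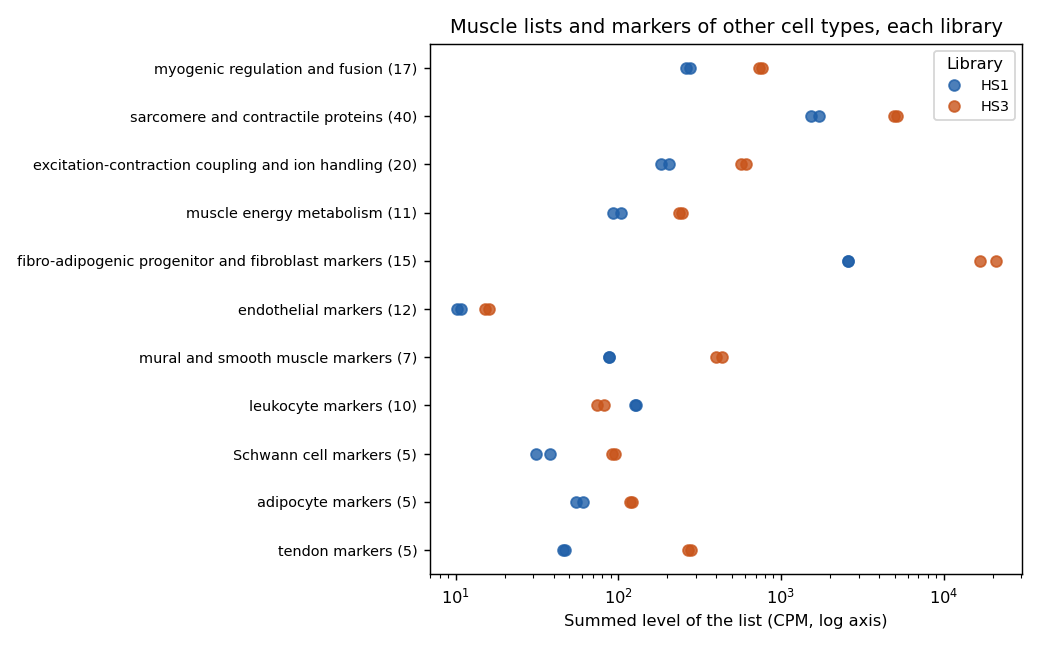
Summed level of each muscle list and each list of cell type markers (number of genes with a symbol in brackets) in the HS1 libraries (blue) and HS3 libraries (orange), in CPM on a log axis. FAP and fibroblast markers are farthest apart at 7.29 times (6.41 times without *Col1a1*), endothelial markers are lowest, and leukocyte markers alone are lower in HS3. The sums hold only markers that the study had called. The lists differ in how many were listed for HS1 or HS3, so the order of the ratios partly follows that choice.

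Receptors for adhesion were the signalling group with the most downregulated DEGs alongside developmental transcription factors. Of 26 tested, 14 were upregulated and 4 downregulated DEGs, with a median log2 fold change of 1.84. Among all named genes the shares were 53.8% and 7.82%, so the upregulated share does not stand out. Of the 11 listed for HS7 or HS14 only, 3 were upregulated and 0 downregulated. *Cdh11*, the cadherin of mesenchymal cells, had 12.9 and 16.5 CPM in HS1 and 185 and 166 CPM in HS3 (log2 fold change 3.58 ± 0.113 (SE), adjusted p = 1.19e-20). The integrin subunits *Itgb3*, *Itga9*, *Itga8*, *Itga11* and *Itga2* were upregulated DEGs with log2 fold changes of 3.14, 2.35, 2.12, 2.03 and 1.65, while *Itga3* was the one integrin subunit lower in HS3. The other downregulated DEGs were proteins of epithelial junctions and polarity: the tight junction protein *Cldn4* (4.40 and 3.90 CPM in HS1 and 0.304 and 0.478 CPM in HS3, log2 fold change -3.36 ± 0.401 (SE), adjusted p = 3.71e-08), the desmosomal cadherin *Dsg2* (-2.89) and the planar polarity cadherin *Celsr2* (-3.23). Each of these 3 had a mean under 10 CPM already in HS1.

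In TGF-beta and BMP signalling 12 of 19 tested were upregulated DEGs, near the share of all named genes, and 1 was a downregulated DEG (median log2 fold change 2.09). Of the 7 listed for HS7 or HS14 only, 1 was an upregulated DEG, and their median was 0.096, below the 0.86 of all such named genes. Among ligands and antagonists, *Grem1*, a secreted BMP antagonist, had 80.0 and 87.6 CPM in HS1 and 350.3 and 349 CPM in HS3 (log2 fold change 2.06 ± 0.0868 (SE), adjusted p = 1.93e-18), *Bmp6* had 5.46 and 3.82 CPM in HS1 and 1.01 and 1.04 CPM in HS3 (-2.17 ± 0.329 (SE), adjusted p = 2.6e-06), and *Tgfb2* had 186 and 179 CPM in HS1 and 222 and 169 CPM in HS3 (0.10 ± 0.102 (SE), adjusted p = 0.486). *Grem1* rose, *Bmp6* fell, and the groups overlapped for *Tgfb2*. *Gdf10*, another BMP-family ligand, had 0 and 2 counts in HS1 and 70 and 66 in HS3, too few in HS1 for a fold. Among receptors, the type I receptor *Acvrl1* went from 4.75 to 63.0 CPM, log2 fold change 3.73, and its partner *Eng* (endoglin) from 33.2 to 142 CPM, log2 fold change 2.09. The inhibitory *Smad6* (2.54) and the BMP-responsive homeobox genes *Msx1* (2.63) and *Msx2* (2.99) were upregulated DEGs.

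In Wnt signalling 10 of 18 tested were upregulated DEGs, near the share of all named genes, and 2 were downregulated (median log2 fold change 1.68). Of the 10 listed for HS7 or HS14 only, 3 were upregulated and 1 downregulated. The ligands went in different directions. *Wnt5a*, a ligand of the non-canonical branch, had 23.1 and 29.3 CPM in HS1 and 167 and 173 CPM in HS3 (log2 fold change 2.7 ± 0.105 (SE), adjusted p = 1.27e-18), and its receptor *Ror2* rose from 4.80 to 43.4 CPM, log2 fold change 3.18. *Wnt10b*, a canonical ligand that restrains fat cell formation, had 6.72 and 9.20 CPM in HS1 and 0.710 and 0.718 CPM in HS3 (-3.47 ± 0.306 (SE), adjusted p = 7.12e-11), and *Wnt4* had 36.3 and 31.0 CPM in HS1 and 70.6 and 76.3 CPM in HS3 (1.13 ± 0.103 (SE), adjusted p = 1.67e-10). *Wnt10b* was thus lower in both HS3 libraries and *Wnt5a* and *Wnt4* were higher, *Wnt4* without reaching the fold threshold. Besides *Nkd2*, the secreted antagonists *Dkk2* (2.21) and *Wif1* (1.57) and the related *Dkk3* (1.91) were upregulated DEGs. Of the R-spondin receptors, *Lgr5* was an upregulated (2.23) and *Lgr6* a downregulated DEG (-2.65).

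Notch genes gave 2 upregulated DEGs of 7 tested and 0 downregulated (median log2 fold change 0.86), a smaller share than that of all named genes. Both DEGs were listed for HS1 or HS3, and of the 5 members listed for HS7 or HS14 only, 0 were DEGs and the median was 0.11. *Dlk1*, a non-canonical ligand of developing muscle and fat, had 1.06 and 1.74 CPM in HS1 and 33.6 and 42.0 CPM in HS3 (log2 fold change 4.76 ± 0.195 (SE), adjusted p = 5.76e-18), low in both HS1 and high in both HS3 libraries. The ligand *Dll1* went from 2.09 to 8.23 CPM, log2 fold change 1.98. *Notch3* and the Notch target *Heyl* rose by adjusted p alone, by 0.86 and 0.88 on the log2 scale, and *Notch1* (0.11) did not pass.

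Among growth factors and tyrosine kinase receptors, 15 of 23 tested were upregulated and 1, *Fgfr4*, downregulated (median log2 fold change 1.77); of the 9 listed for HS7 or HS14 only, 3 were upregulated, with a median of 0.41. *Hgf*, the factor that activates satellite cells, had 1.39 and 1.56 CPM in HS1 and 19.4 and 18.1 CPM in HS3 (log2 fold change 3.66 ± 0.209 (SE), adjusted p = 2.77e-15). *Igf1*, a growth factor of muscle, went from 1.59 to 8.06 CPM, log2 fold change 2.33, and the mesenchymal ligands *Fgf10* and *Fgf7* from 2.11 to 20.8 CPM, log2 fold change 3.29, and from 18.7 to 63.8 CPM, log2 fold change 1.77. *Igfbp4*, a binding protein of insulin-like growth factors, had 37.8 and 36.4 CPM in HS1 and 119 and 134 CPM in HS3 (1.77 ± 0.0959 (SE), adjusted p = 7.33e-16). *Erbb3*, a receptor for neuregulins, had 3.67 and 3.38 CPM in HS1 and 22.5 and 20.9 CPM in HS3 (2.62 ± 0.172 (SE), adjusted p = 7.74e-14), and the neuregulin ligand *Nrg1* went from 7.17 to 21.2 CPM, log2 fold change 1.56. Ligand and receptor were therefore both higher in HS3 for the neuregulin pair. The FAP marker sum moved in the same direction, and its part was not tested.

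Cytokine, complement and interferon genes gave 20 upregulated and 2 downregulated DEGs of 28 tested (median log2 fold change 2.23), although of the 6 listed for HS7 or HS14 only, 2 were upregulated. *Il33*, an alarmin of stromal cells, had 6.27 and 6.29 CPM in HS1 and 51.9 and 52.1 CPM in HS3 (log2 fold change 3.05 ± 0.131 (SE), adjusted p = 2.95e-18), and its receptor *Il1rl1* had 337 and 353 CPM in HS1 and 1318 and 1275 CPM in HS3 (1.91 ± 0.0829 (SE), adjusted p = 3.80e-18). Both sides of this pair were higher in both HS3 libraries. *Ifitm3*, an interferon-induced membrane protein, had 32.5 and 32.1 CPM in HS1 and 148 and 167 CPM in HS3 (2.28 ± 0.0962 (SE), adjusted p = 1.93e-18). The downregulated members were *Cxcl3*, a neutrophil chemokine (22.4 and 21.9 CPM in HS1 and 3.04 and 2.47 CPM in HS3, log2 fold change -3.02 ± 0.181 (SE), adjusted p = 8.40e-15), and *Cmpk2*, an interferon-induced kinase of mitochondria, from 3.00 to 0.482 CPM, log2 fold change -2.6. *Il6* went from 0.331 to 1.20 CPM, log2 fold change 1.86, but its adjusted p was 0.0172.

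Receptors and ligands of vasoactive peptides had 15 upregulated DEGs and 1 downregulated DEG of 23 tested (median log2 fold change 2.64); of the 6 listed for HS7 or HS14 only, 1 was upregulated, with a median of 0.97. Besides *Ramp3*, its ligand adrenomedullin (*Adm*) went from 4.27 to 38.5 CPM, log2 fold change 3.17. The bradykinin receptor *Bdkrb2* had 9.29 and 7.29 CPM in HS1 and 73.3 and 77.0 CPM in HS3 (log2 fold change 3.18 ± 0.126 (SE), adjusted p = 3.79e-19), and *Penk*, the precursor of enkephalins, had 33.1 and 33.9 CPM in HS1 and 176 and 196 CPM in HS3 (2.47 ± 0.0946 (SE), adjusted p = 1.66e-19). *Ptgs1*, the constitutive cyclooxygenase, had 291 and 297 CPM in HS1 and 480.2 and 538 CPM in HS3 (0.79 ± 0.0832 (SE), adjusted p = 2.82e-09) and rose by adjusted p alone. *Nppb*, the B-type natriuretic peptide, was the downregulated DEG, with 4.64 and 5.21 CPM in HS1 and 1.12 and 1.20 CPM in HS3 (-2.08 ± 0.308 (SE), adjusted p = 1.76e-06), while *Npr3*, the receptor that clears such peptides, was upregulated, with 8 and 4 counts in HS1 and 121 and 113 in HS3.

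Of 34 developmental transcription factors, 25 were upregulated and 4 downregulated DEGs (median log2 fold change 2.56), and of the 11 listed for HS7 or HS14 only, 7 were upregulated. Among the upregulated factors, *Ebf1* went from 5.30 to 46.5 CPM, log2 fold change 3.13, *Meox2* from 3.19 to 30.1 CPM, log2 fold change 3.24, *Nr2f2* from 6.38 to 46.8 CPM, log2 fold change 2.87 and *Twist2* from 3.68 to 32.0 CPM, log2 fold change 3.12. *Ebf2*, a factor of mesenchymal and brown fat precursors, had 13.9 and 12.1 CPM in HS1 and 56.7 and 53.5 CPM in HS3 (log2 fold change 2.08 ± 0.120 (SE), adjusted p = 3.56e-15). The 4 downregulated factors were *Sim2*, *Pax8* (8.80 and 9.07 CPM in HS1 and 0.811 and 1.12 CPM in HS3, log2 fold change -3.19 ± 0.275 (SE), adjusted p = 4.44e-11), *Six2* (-2.27) and *Gata3* (-2.10). *Pax8* and *Six2* are known from the developing kidney and *Gata3* from lymphocytes and epithelia, and their means in HS1 were 8.93, 6.34 and 10.2 CPM. *Klf4*, a stress-responsive zinc finger factor, had 20.2 and 22.0 CPM in HS1 and 36.0 and 34.8 CPM in HS3 (0.75 ± 0.118 (SE), adjusted p = 5.40e-06) and was not a DEG.

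**Figure D4:**
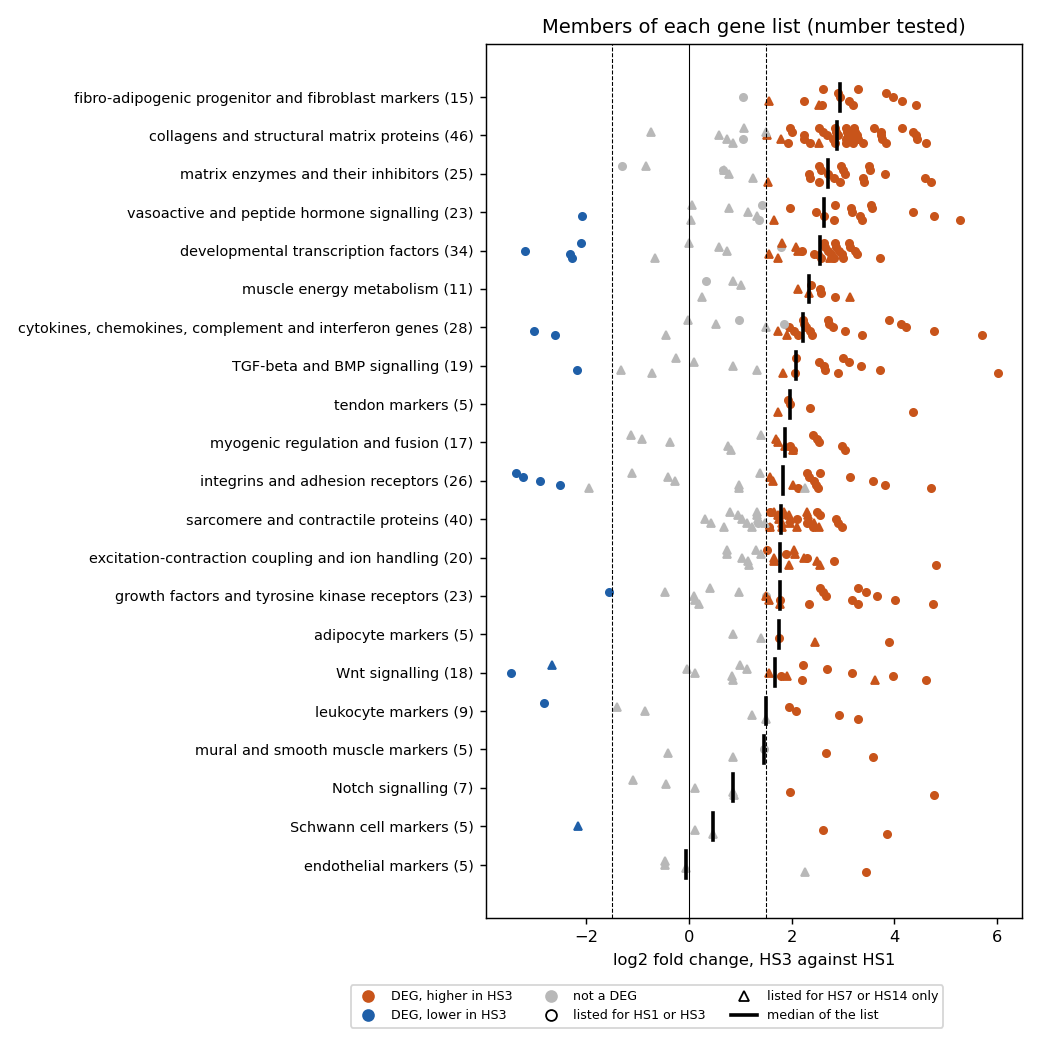
Log2 fold change in HS3 against HS1 of each member tested (points) of 21 gene lists, with the list's median as a black bar and lists ordered by median. FAP markers (2.94) and structural matrix (2.88) are highest. Sarcomere members all lie to the right of 0 with a median of 1.80, and the endothelial median is -0.062. Triangles mark genes listed for HS7 or HS14 only, and dashed lines the fold threshold. The lists differ in their share of such genes, so the order of the medians partly follows that choice.

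The position of Control between the groups was described on a scale set over all 10 libraries. The mean of Control lay between those of HS1 and HS3 for 714 of the 740 upregulated DEGs, 186 of the 192 downregulated DEGs and 7098 of the 12076 other genes; DEGs were chosen for the distance between HS1 and HS3, so this count is a description. On a scale from 0 at HS1 to 1 at HS3, the median position of Control was 0.606 for the upregulated and 0.374 for the downregulated DEGs. Of the 58 upregulated DEGs of the matrix lists, 42 had their highest group mean in HS3 and 15 in HS7, and of 109 in the signalling lists, 88 had it in HS3 and 17 in HS7. *Il1rn* had 39.6 and 40.2 CPM in Control, 10.4 and 7.19 CPM in HS7 and 2.84 and 2.74 CPM in HS14, and *Fbn1* had 989 and 1027 CPM in Control, 744 and 637 CPM in HS7 and 343 and 307 CPM in HS14. HS3 exceeded every other group in both. Of the 58 upregulated DEGs of the muscle lists, 51 had their highest mean in HS7 and 7 in HS3, *Pygm* among the latter. All these genes have names because the study called them at some time of suspension. Many muscle genes were listed for HS7 or HS14 only, and most matrix genes for HS1 or HS3. The group with the highest mean was therefore partly set by that choice, and no share over all upregulated DEGs is given. *Myog* had 233 and 243 CPM in Control, 884 and 669.8 CPM in HS7 and 182 and 153 CPM in HS14, and *Myh3* had 309 and 336 CPM in Control, 1989.7 and 1106 CPM in HS7 and 172 and 159 CPM in HS14. The HS7 libraries lay far apart for *Myh3*, but both were above both HS3 libraries. *Itga3* had 473 and 474 CPM in Control, 101 and 120.3 CPM in HS7 and 192 and 207 CPM in HS14, so that HS1 was its highest group and HS3 and HS7 its lowest. *Fgfr4* had 66.6 and 68.5 CPM in Control, 103 and 120.4 CPM in HS7 and 133 and 126 CPM in HS14, and was lowest in HS3.

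**Figure D5:**
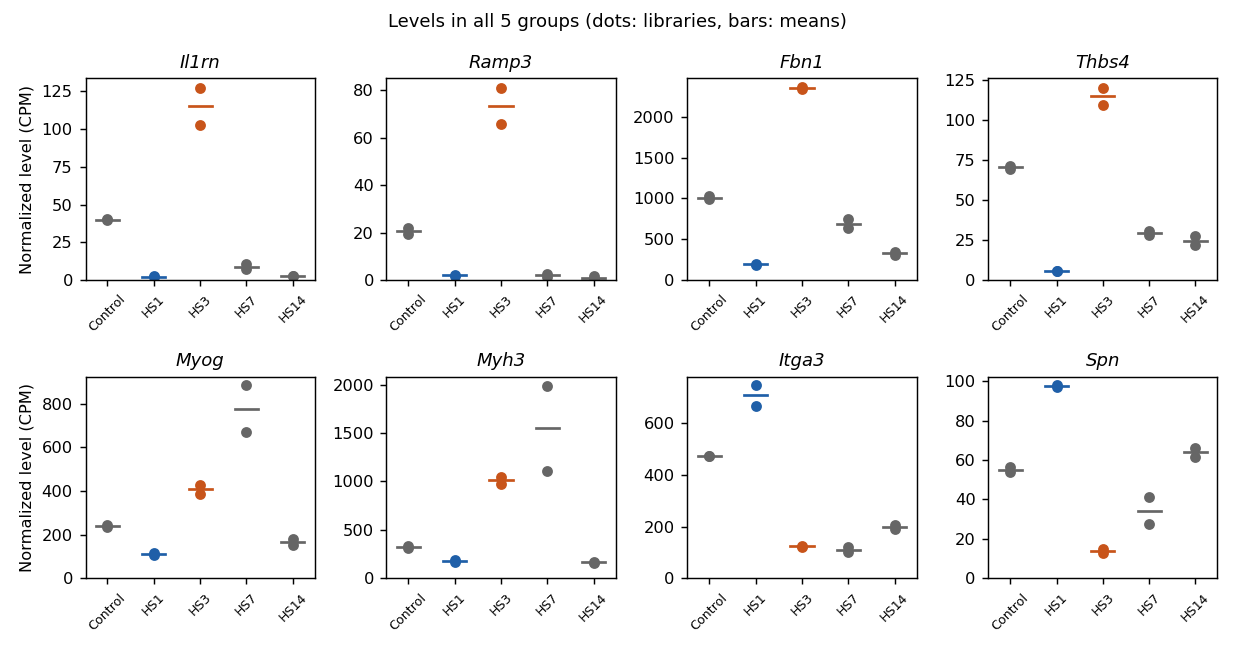
Level of 8 genes in each library (dots) of Control, HS1, HS3, HS7 and HS14, in CPM on a linear axis from 0, normalized over all 10 libraries, with bars at the group means. *Il1rn*, *Ramp3*, *Fbn1* and *Thbs4* are highest in HS3, *Myog* and *Myh3* rise from HS1 through HS3 to HS7, and *Itga3* and *Spn* are highest in HS1.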

How the data were processed

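RNA from cultured soleus myoblasts was sequenced in 10 libraries, and the 2 HS1 and 2 HS3 libraries were used for the tests. The authors made stranded mRNA libraries, aligned the reads with STAR, assigned them to genes with featureCounts (version 1.6.4 in the submitters' processing notes) and deposited raw read counts of 32622 Ensembl genes, with no normalization. The study's methods and the submitters' notes name different rat genome builds (the notes give Rnor 6.0), so no coordinates of the counted genes are given. Symbols came from the identifiers of a supplementary list of genes called by the study: 770 of its 817 identifiers had one, and 742 of these were tested. Promoters came from RefSeq (GRCr8), matched by gene identifier.

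Groups and replicate numbers came from the sample labels. Genes were kept by filterByExpr (13008 kept), libraries were scaled by TMM, and groups were compared with edgeR 4.0.16 (robust quasi-likelihood test, Benjamini-Hochberg adjustment over all genes tested, prior count 0.125) with limma 3.58.1 in R 4.3.3. Every adjusted p is from this test unless another tool is named. SE is that of the log2 fold change. The thresholds for DEGs (0.01 for the adjusted p, 1.5 for the size of the log2 fold change) are those of the study's methods. Levels outside HS1 and HS3 use a TMM scale over all 10 libraries. Both scripts for edgeR and DESeq2 1.42.0 were tested on simulated data.

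Named genes were, in each direction, at most 12 DEGs ranked by size of change, with a mean of at least 3 log2 CPM and no overlap; in each of 22 gene lists the 3 members with the most counts and the called member with the largest change in each direction; and a fixed set of genes the study discusses. Other list members given as examples were chosen after their values were seen. The comparison, the members and the lists were chosen with earlier results of these data known. Alternatives were DESeq2, RLE size factors, no expression filter, one fit of all 10 libraries, a replicate block, a lower fold threshold and leaving out each library. The floor of 3 counts covers counting error only. Immunostaining and PCR data were not used here.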

Additional observations from a re-analysis of the deposited data

How the results depend on the processing

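The numbers of DEGs kept to within 1.5 times of 740 upregulated and 192 downregulated under DESeq2 (648 and 142), RLE size factors (742 and 190), no expression filter (744 and 191) and all 10 libraries in one fit (721 and 187). With a log2 fold change beyond 1, they were 1110 and 391. Leaving out each library gave 641 to 700 upregulated and 160 to 182 downregulated DEGs, with the single library of a group assumed to vary like the other group. A fit with a replicate block gave 757 and 199 and changed no call of a named gene. Libraries with the same number deviated from their groups with a correlation of 0.035 over 2 pairs, so the numbers were not read as pairs.

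Of 891 values for named genes under the alternatives, 875 kept direction and side of the adjusted p threshold, and 877 kept their call as a DEG or not. Calls at the fold threshold changed with single libraries: *Fgfr4* (-1.44, without HS3 replicate 1) and *Msln* (-1.47, without HS1 replicate 2) were no longer DEGs, while *Lmod1* (1.64 and 1.57, without HS1 replicate 2 or HS3 replicate 1), *Pparg* (1.54 and 1.52, without either replicate 1) and *Srl* (1.51, without HS1 replicate 1) became DEGs. *Tgfb2* turned to -0.11 without HS3 replicate 1 and passed the adjusted p at 0.29 without HS3 replicate 2. In the fit of all 10 libraries *Acta1*, *Camk2b*, *Casq2*, *Cdkn1c* and *Tead4* no longer passed (adjusted p 0.0149 to 0.0419). *Gldn*, *Has1* and *Ptprz1* did not pass with DESeq2. *Gldn* (lowest log2 fold change 0.27, without HS1 replicate 1), *Ptprz1* (-1.48, without HS3 replicate 2) and *Ndufa4l2* (3.31, without HS3 replicate 1) each missed a threshold in at least 1 fit without a library. Of 198 list medians under the alternatives, 26 were counted as moved in size and 2 changed sign, and 13 of 440 list counts of DEGs moved. The FAP median was 3.14 without HS1 replicate 2 and 2.82 without HS3 replicate 2. Without HS1 replicate 1 the tendon median was 2.34 and that of growth factors 2.36. The endothelial median of -0.062 turned to 0.33 without HS1 replicate 1 and to 0.28 without HS3 replicate 1, with 5 genes tested. Without each library the endothelial median ran from -0.37 to 0.33. The causes were not tested. With 2 libraries a group, 2 residual degrees of freedom and symbols for called genes alone, small differences and most genes by name are beyond these data.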
